A study of Drosophila melanogaster with 2 samples.

Results

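Cluster 27 is a small group of neurons in the brain of Drosophila larvae of the third instar. Its members are the cells of both libraries that the deposited table annotates with the number 27 alone, and there were 60 of them among 5056 cells. They were compared with the 3353 cells of the 25 other clusters that carry only a number, without clusters 1 and 31, and these are called the compared neurons here. Neurons of the larval brain are born in lineages, and each lineage or temporal window of a lineage carries its own combination of transcription factors. Such combinations, often of homeobox, LIM, POU, Pax and zinc-finger proteins, set transmitter, wiring and shape. Many of the neurons present at this stage were born in the larva, wait with undifferentiated processes and mature in the pupa.

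The study concerned which neurons express para, the gene of the fly's voltage-gated sodium channel. It made 2 droplet libraries with 3 prime chemistry, 1 per group, so there is no replicate and no test between groups. The fresh library came from a DGRP-551 based hybrid, whose other parent the labels do not name. The MeOH library was fixed in methanol and pooled cells of the inbred DGRP lines 45, 136, 382, 409, 502, 639 and 761, although the dissociation text of both samples mentions methanol. No transgene or driver is given for either group, and strain, fixation and preparation cannot be told apart. The lines of the MeOH library are units below 1 library and serve here to show spread. Across the whole series 2341 fresh and 2715 MeOH cells were listed, with median totals of 6598 and 3564 UMIs (unique molecular identifiers, 1 per captured transcript). The libraries shared 11 cell barcodes, 0 of them in cluster 27.

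In the fresh library 35 cells belonged to cluster 27, and in the MeOH library 25. As a share of cluster 27 plus the compared neurons this was 2.06% in fresh (exact Clopper-Pearson 95% interval 1.44 to 2.85) and 1.46% in MeOH (0.948 to 2.15). These intervals overlapped, and like all intervals given here they cover counting error only. Over the MeOH lines the share ran from 0 of 234 neurons in line 409 to 2.36% in line 136 (8 cells), with a median of 1.47%. The exact interval of line 409 reached 1.56%, above that median. The other lines held 2 to 5 cells each, so the cluster was seen in 6 of 7 lines. The cells gave fewer UMIs than the compared neurons. Their median was 4814 UMIs in fresh and 2600 in MeOH, against 6600 and 3334. Thinned to 2000 UMIs per cell, they showed a median of 947 and 939 genes, against 923 and 918. In the finer clustering deposited at a resolution of 1.5, 59 of the 60 cells formed a cluster with no other cells, and at 0.6 the count was 58. At a resolution of 1 the cluster was merged with 149 cells of cluster 4 into a group of 213.

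Pan-neuronal markers were present, and repo, which defines most glia, was absent. The pan-neuronal RNA-binding protein gene elav had 560 CPM (UMIs of the gene per 1e+06 UMIs of the summed cells) in fresh cluster 27 and 951 in MeOH, against 545 and 774 in the compared neurons. A UMI of elav was seen in 30 of 35 and 24 of 25 cells. The synaptic vesicle gene nSyb stood at 261 and 342 CPM, against 458 and 362. The 16 markers of mature neurons summed to 4853 CPM in fresh (4543 to 5179) and 6797 in MeOH (6233 to 7397), below the 6524 and 8654 of the compared neurons. The glial transcription factor gene repo had 0 UMIs in all 60 cells. The 13 glial markers summed to 219 CPM in fresh (157 to 297) and 216 in MeOH (126 to 345), against 169 and 208 in the compared neurons, and 8 of the 13 were at 0 in each library. The 11 neuroblast markers summed to 80.0 and 165 CPM, against 78.2 and 159. Ganglion mother cell markers summed to 9504 and 11095 CPM, against 11275 and 16860, and 9035 and 10614 of that was pros, which neurons also express. Of 6 tracheal and epidermal markers 5 were at 0, and 1 gene gave 229 and 837 CPM, against 179 and 868 for the list in the compared neurons. The 19 markers of optic lobe neuroepithelium, which include transcription factors used by neurons, summed to 832 and 837 CPM, against 1834 and 2521. The part of these classes in the results was not tested. Surface glia markers were at 0 in both libraries. Markers of the fat body and of muscle had 0 UMIs in fresh, with 3 and 1 in MeOH, and those of hemocytes had 3 and 1.

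The clusters were made from the genes of these same cells, so what follows describes the cluster and tests nothing. A gene entered when it reached 50 CPM on either side and 20 UMIs over both sides in each library, and 2624 genes did. Of these, 54 (2.06%) were at least 2 fold higher in cluster 27 in both libraries, and 87 (3.32%) were at least 2 fold lower in both. Lineage transcription factors such as fkh, slou, kn and acj6 were among the leading higher genes. The 8 named lower genes were CG14989, jeb, Sox14, IA-2, VGlut, bru3, CR43283 and vvl. The count of lower genes was 50 without clusters 3 and 33, the pair with the highest para levels (307 and 726 CPM).

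The gene fkh encodes the founding Forkhead transcription factor. It had 127 UMIs in fresh cluster 27, or 677 CPM (exact Poisson 95% interval 565 to 806), against 51.9 CPM in the compared neurons, a ratio of 13.05. In MeOH the level was 735 CPM (558 to 951) against 58.1, a ratio of 12.65. A UMI was found in 33 of 35 and 20 of 25 cells, in spite of their lower depth, against 13.4% and 12.3% of the compared neurons and 1.30% and 2.91% of glia, whose median depth was 8822 and 4816 UMIs. At an equal depth of 2000 UMIs these shares were 71.4% and 72% in cluster 27 and 7.74% and 8.19% in the compared neurons. The gene lies on chromosome 3R from 28580976 to 28585264 on the minus strand and overlaps no other annotated gene (BDGP6, the Ensembl name of dm6). Among the number-only clusters cluster 27 had the highest level, 695 CPM over both libraries (598 to 802). Cluster 26 followed with 422 (353 to 500) and cluster 28 with 289 (224 to 367). The interval of cluster 27 overlapped neither.

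The POU-homeobox gene acj6, known for its role in odorant receptor choice and wiring of olfactory neurons, was also high. It had 448 CPM in fresh (357 to 555) against 64.5, and 1116 CPM in MeOH (895 to 1375) against 114.9. It was detected in 24 of 35 and 21 of 25 cells, against 10.7% and 13.4% of the compared neurons and 2.60% and 5.83% of glia. Over both libraries cluster 14 stood at 661 CPM, cluster 27 at 646 and cluster 23 at 497. The first pair did not differ beyond counting error. A UMI of both fkh and acj6 was seen in 24 of 35 fresh cells (68.6%, 50.7 to 83.1) and 17 of 25 MeOH cells (68%, 46.5 to 85.1). The same pair was seen in 2.70% and 2.55% of the compared neurons and in 1.30% and 1.94% of glia. After thinning, the pair was left in 42.9% and 52% of cluster 27 and in 1.02% and 0.949% of the compared neurons.

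The Pax6 gene toy and the T-box gene bi (optomotor-blind) completed the combination that most cells carried. Toy had 528 CPM in fresh against 165 and 431 in MeOH against 120, in 33 of 35 and 19 of 25 cells. Bi had 1328 CPM in fresh against 375 and 1915 in MeOH against 715, in 31 of 35 and 23 of 25 cells. Bi was not rare elsewhere: cluster 34 reached 3518 CPM and cluster 4 reached 1525, against 1502 in cluster 27. All of fkh, acj6, toy and bi were detected together in 65.7% of fresh and 44% of MeOH cells, against 0.720% and 0.830% of the compared neurons. Cluster 23 also carried these genes, with fkh at 236, acj6 at 497, toy at 231 and bi at 1086 CPM over both libraries. Fkh was found in 54.9% and acj6 in 70.4% of its 71 cells. Joint detection was not counted cluster by cluster.

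**Figure D1:**
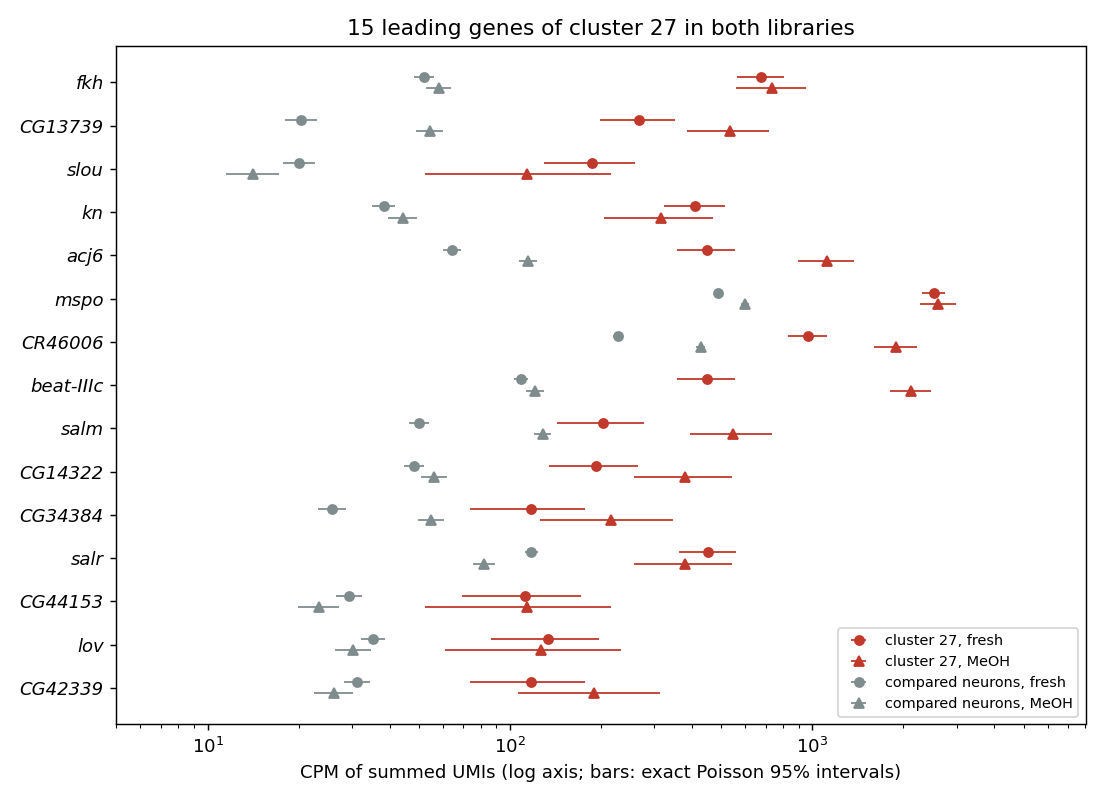
CPM of summed UMIs (log axis) of the 15 genes with the highest ratio in cluster 27 (red) and in the compared neurons (grey), with fresh as circles, MeOH as triangles and bars for exact Poisson 95% intervals. In every gene shown the red points of both libraries lie right of the grey ones, with fkh at 677 and 735 CPM against 51.9 and 58.1.

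Of 86 homeobox transcription factor genes in the matrix, 20 entered. At least 2 fold higher in both libraries were 6, namely acj6, ap, Lim3, slou, toy and tup, and lower were 5, namely Antp, hbn, hth, Ubx and vvl. The NK-class gene slou, known from muscle founder cells, had 187 CPM against 20.1 in fresh and 114 against 14.2 in MeOH, in 15 of 35 and 6 of 25 cells. The LIM-homeobox gene Lim3, a determinant of motor neuron subtypes, had 144 against 34.7 and 101 against 30.2, in 19 of 35 and 6 of 25 cells. Tup, the Islet gene of the fly, had 144 against 24.0 and 114 against 37.4. Cluster 27 had the highest level of slou among the clusters, 165 CPM over both libraries against 59.1 in cluster 7. For tup it stood at 135 and cluster 14 at 97.7, with overlapping intervals, and cluster 21 passed it for Lim3, with 282 CPM against 131. The Hox genes Antp and Ubx, which mark segments of the ventral nerve cord, had 1 and 0 UMIs in all 60 cells, against 91.8 to 214 CPM in the compared neurons. The median log2 ratio of the 20 genes was 0.58 in fresh and 0.43 in MeOH, beside 0.02 and 0.02 over all genes that entered. Of all those genes, 2.06% were higher and 3.32% lower in both libraries.

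Of 123 genes listed as bHLH, zinc-finger and related transcription factors, 35 entered. At least 2 fold higher were bi, fkh, kn, lov and Sox102F. At least 2 fold lower were Fer1, Sox14, disco, tsh, Eip74EF and bru3. The COE-family gene kn (collier) had 411 CPM in fresh (324 to 513) against 38.2, and 317 in MeOH (205 to 468) against 44.2. Its level exceeded that of the next cluster, 383 CPM against 215 in cluster 18, but it came from 12 of 35 and 8 of 25 cells. The paired spalt genes salm and salr lie on chromosome 2L at 11434311 to 11445614 and 11358873 to 11373636. Salm had 203 against 50.2 CPM in fresh and 545 against 128 in MeOH, and salr had 453 against 118 and 380 against 82.2. They too came from a minority of cells, 14 and 10 for salm and 12 each for salr. Cluster 26 carried salm and salr at 447 and 422 CPM, beside 304 and 432 in cluster 27.

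**Figure D2:**
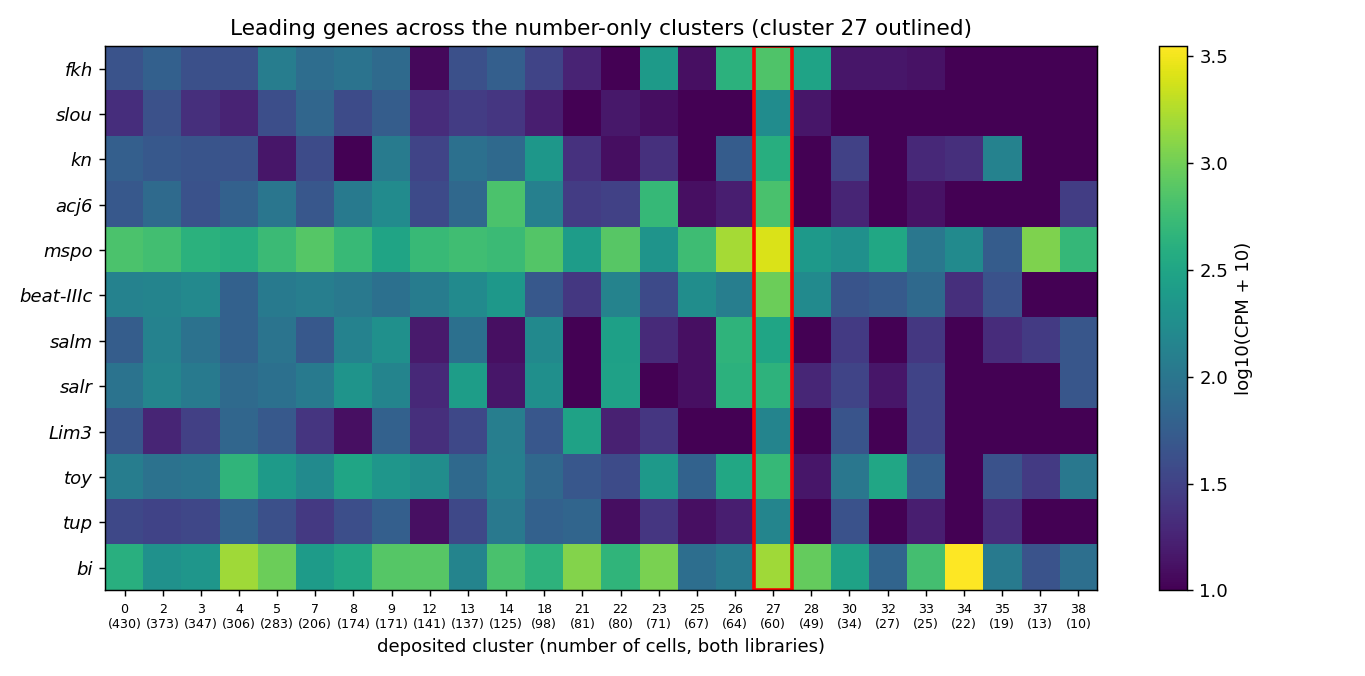
Level of 12 leading genes, as log10(CPM + 10) over both libraries, in cluster 27 (outlined) and the 25 compared clusters, with cell numbers in brackets. Cluster 27 has the highest level of fkh, slou, kn, mspo and beat-IIIc, is level within counting error with cluster 26 for salr, cluster 4 for toy and cluster 14 for tup and acj6, and lies below cluster 34 for bi.

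Cell-surface and matrix genes formed the other large group. Mspo, a secreted protein of the spondin family, was the most abundant of them, with 2517 CPM in fresh (2295 to 2755) against 486 and 2612 in MeOH (2268 to 2994) against 599. It was found in 33 of 35 and 24 of 25 cells, but also in 64.6% and 59.0% of the compared neurons. Of 97 listed recognition genes 60 entered, with 9 at least 2 fold higher and 8 at least 2 fold lower. Among all genes that entered, 2.06% were higher and 3.32% lower. The higher ones were DIP-eta, a binding partner of Dpr proteins, the beat family members beat-IIIc, beat-Va and beat-Vb, the Toll receptors Toll-6 and Toll-7, the adhesion molecules Dscam2 and Dscam3, and nrm. Dscam2, whose products mediate repulsion between like neurites, had 869 CPM against 290 in fresh and 1217 against 371 in MeOH. Beat-IIIc had 448 against 109 in fresh and 2118 against 121 in MeOH. The lower ones were dpr8, dpr13, dpr17, beat-Ic, beat-VII, side, Fas2 and Con. Without clusters 3 and 33 beat-Ic, beat-VII and Con no longer passed, and dpr10 joined the higher genes. Fas2, a homophilic adhesion molecule of axon tracts, had 181 against 470 and 380 against 1410 CPM. The median log2 ratio of the 60 was 0.00 and -0.19, beside 0.02 and 0.02 over all genes.

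Transmitter genes were sparse. VAChT, the vesicular acetylcholine transporter, had 123 CPM in fresh (77.8 to 184) against 99.1 and 139 in MeOH (69.6 to 250) against 109, in 14 of 35 and 7 of 25 cells. Cluster 27 stood 5th among the clusters for it. ChAT, the acetylcholine-synthesizing enzyme whose locus contains VAChT, had 12 UMIs in fresh and 1 in MeOH. VGlut, the vesicular glutamate transporter, had 69.3 CPM against 511 in fresh and 50.7 against 699 in MeOH, at most 5 cells per library. Gad1, the GABA-synthesizing enzyme, had 0 and 1 UMI, and VGAT had 3 and 2. Vmat and ple, of monoamine neurons, had 0 UMIs. Over cluster 27 as a whole, a UMI of the acetylcholine transporter was thus the most frequent of these. The interval of its level included that of the compared neurons. Among the cells with kn and no spalt gene, described below, VAChT was seen in 4 of 19 and VGlut in 5 of 19.

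Para itself had 4 UMIs in fresh and 6 in MeOH. This is 21.3 CPM (5.81 to 54.6) against 67.1 in fresh, and 76.1 CPM (27.9 to 166) against 142 in MeOH. The upper bound lay under the compared level in fresh and above it in MeOH, but with cells thinned to 2000 UMIs fresh cluster 27 had 42.9 CPM (8.84 to 125) against 54.6, and MeOH 40 (4.84 to 144) against 125. The thinned values rest on 3 UMIs in fresh and 2 in MeOH from a single random draw. They are too few to decide whether the level was lower. Without clusters 3 and 33 the compared level was 34.3 and 66.7 CPM, within both intervals, which gave ratios of 0.621 and 1.14. Of the cell kinds described below, the spalt cells held 8 para UMIs in 6 of 26 cells. The kn cells held 1 UMI in 1 of 19 cells, and those with neither 1 UMI in 1 of 14. These counts are too few to compare the kinds. Para was detected in 4 of 35 and 4 of 25 cells, and cluster 27 stood 12th among the clusters. Its auxiliary subunit gene tipE had 1 and 3 UMIs, or 5.33 against 43.1 and 38.0 against 77.5 CPM.

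Among the 8 named lower genes, CG14989 had 42.7 CPM against 1895 in fresh and 139 against 2542 in MeOH. Jeb, which encodes the ligand of the receptor Alk, had 4 and 2 UMIs, against 286 and 353 CPM in the compared neurons. IA-2, a dense-core vesicle protein, had 26.7 against 603 and 127 against 1035 CPM, and the ecdysone-responsive gene Sox14 had 16.0 against 275 and 25.4 against 246. Of 7 listed peptide-processing genes that entered, Pal2, 7B2 and IA-2 were at least 2 fold lower and 0 were higher. The shares over all genes were 3.32% lower and 2.06% higher. Without clusters 3 and 33 among the compared neurons Pal2 and 7B2 no longer passed, and IA-2 stood at ratios of 0.109 and 0.279. Jeb, Sox14, VGlut, bru3, CR43283, vvl and CG14989 stayed at least 2 fold lower in both libraries.

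Of 10 listed glycolysis genes that entered, 6 were at least 2 fold lower, namely Pgi, Ald, Tpi, Gapdh2, Pglym78 and PyK. None were higher, and over all genes 3.32% were lower and 2.06% higher. Gapdh2 had 181 against 522 CPM in fresh and 216 against 492 in MeOH. Their median log2 ratio was -1.38 and -1.72. This count fell to 0 of 8 without clusters 3 and 33, where Gapdh2 had ratios of 0.538 and 0.801. The lists of nicotinic receptor subunits (9 entered), potassium channels (7), axonal cytoskeleton (15) and heat-shock genes (9) had 0 members past 2 fold in both libraries. This held in either direction. At the shares over all genes, 2.06% higher and 3.32% lower, lists this short hold few such genes, so 0 is near the background. Within MeOH alone Hsp70Bc and Hsp68 were at log2 ratios of -2.77 and -1.15, from 1 and 7 UMIs. In fresh they went the other way, at 683 against 381 and 891 against 450 CPM. Without clusters 3 and 33 the potassium channel gene CG42594 was at least 2 fold higher in both.

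Among the genes of birth timing, Syp was higher than in the compared neurons and Imp lower. Syp, an RNA-binding protein of late-born neurons, had 2171 CPM against 1270 in fresh and 2878 against 1534 in MeOH, and was found in all 60 cells. Imp, its early counterpart, had 149 against 412 and 558 against 1024, in 4 of 35 and 9 of 25 cells. Chinmo and mamo had 1680 and 2640 CPM in fresh, against 1161 and 2038, and 2371 and 4235 in MeOH, against 1668 and 3340. None of these reached 2 fold in both libraries.

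**Figure D3:**
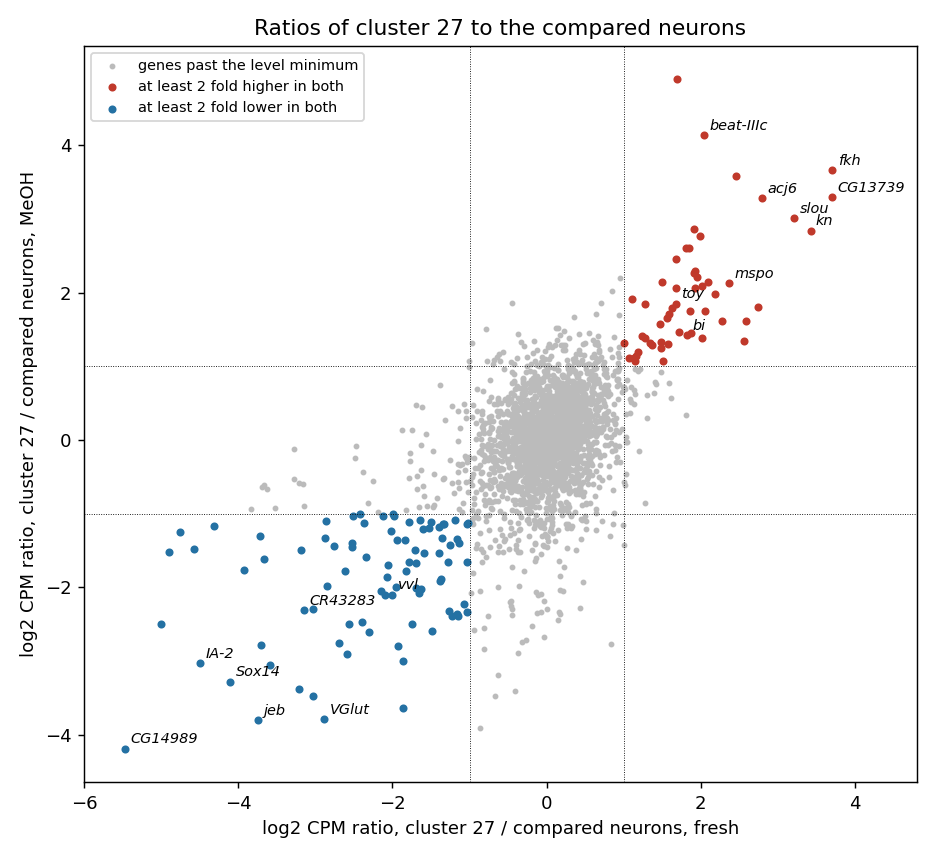
Log2 ratio of CPM in cluster 27 to the compared neurons in fresh (x axis) and MeOH (y axis) for the 2624 genes that entered, with dotted lines at 2 fold. The 54 genes at least 2 fold higher in both libraries are red, the 87 lower are blue, and a side at 0 UMIs is set to 3 counts.

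Within cluster 27 the cells split by transcription factors, a division chosen after the cells had been looked at. A UMI of kn without salm or salr was seen in 11 fresh and 8 MeOH cells. A UMI of salm or salr without kn was seen in 13 fresh and 13 MeOH cells. Neither was seen in 10 and 4 cells, and both in 1 and 0. The cell with both had 10 UMIs of kn and 1 of salm. With at least 2 UMIs required, 0 cells carried both in either library. In the compared neurons 98 fresh and 91 MeOH cells had kn alone, 257 and 327 had salm or salr alone, and 24 cells of each library carried both. Median depth differed little between the kn and spalt cells, at 4272 and 4814 UMIs in fresh and 2470.5 and 2635 in MeOH. The spalt cells came from 6 of the 6 lines with cells in cluster 27 and the kn cells from 4.

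Both kinds shared fkh, acj6, toy and bi. Fkh was found in 21 of the 26 spalt cells and in all 19 kn cells, acj6 in 24 and 17, toy in 24 and 15, and bi in 22 and 18. Their other regulators differed. The LIM-homeobox gene Lim1 was found in 11 of 13 fresh and 12 of 13 MeOH spalt cells and in 0 of 19 kn cells, at 384 and 992 CPM in the spalt cells. Lim3 was the reverse, with 9 of 11 fresh and 4 of 8 MeOH kn cells and 0 of 26 spalt cells. Over 969 genes that entered this comparison, Lim1 ranked right behind salm among the genes higher in spalt cells. The place of salm is by construction, since a salm or salr UMI defined these cells.

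The spalt cells also carried Sox102F, a Sox-family gene, in 9 of 13 and 10 of 13 cells, where the kn cells had 0 of 11 and 0 of 8. The adhesion gene Fas3 was seen in 9 and 10 spalt cells and in 0 and 1 kn cells. Beat-IIIc had 1010 CPM (788 to 1273) in the fresh spalt cells against 194 (97.0 to 348) in the fresh kn cells, and 4100 (3484 to 4794) against 340 (147 to 671) in MeOH. The homeobox gene pros, a regulator of neuronal differentiation, had 16097 against 2934 CPM in fresh and 14938 against 1021 in MeOH. The 10 genes with the highest ratio of spalt to kn cells were salm, Lim1, igl, salr, pros, beat-IIIc, nAChRalpha7, Fas3, dati and kek1. Salm and salr are among them by construction. VAChT was detected in 10 of 13 and 4 of 13 spalt cells, against 2 of 11 and 2 of 8 kn cells. VGlut was detected in 1 of 13 and 1 of 13 spalt cells, against 3 of 11 and 2 of 8 kn cells.

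In the kn cells the leading gene was CR45223, a noncoding RNA, found in 9 of 11 and 8 of 8 cells against 0 and 1 of 13 spalt cells. Its level was 1202 CPM (933 to 1524) in fresh and 3575 (2852 to 4426) in MeOH. CR45223 lies on chromosome 3R at 17646903 to 17653478 on the minus strand and overlaps CG14322, which lies on the plus strand and was also found in 9 of 11 and 6 of 8 kn cells. The strand of counting is not given in the sources used here, so these genes cannot be told apart with certainty. CG13739, in 7 of 11 and 7 of 8 kn cells, was at 0 in all 26 spalt cells. The homeobox gene ct was found in 7 and 7 kn cells against 0 and 1 spalt cells, and the Sox gene SoxN in 8 and 5 against 0 and 2. Ap and lov, at 8 of 19 kn cells each, were at 0 in the spalt cells. Rad, the receptor phosphatase gene Ptp99A, CG42339 and heph were the remaining genes among the 10 with the highest ratio, beside kn itself, which is there by construction.

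The 14 cells with neither kn nor a spalt gene were different again. Only 3 of them had a UMI of acj6, and 2 of these carried CR45223 and CG13739 as the kn cells did. The 11 without acj6 had fkh in 9, toy in 9 and bi in 11 cells. Of these 11, slou was found in 9, Lim3 in 10, lov in 8 and ct in 8, and mspo stood at 5226 CPM in the 8 fresh and 3551 in the 3 MeOH cells. CR45223 and CG13739 were at 0 in them, and Lim1 had 1 UMI. Slou, by comparison, was found in 10 of 26 spalt cells and 1 of 19 kn cells. The slou cells thus fell mostly outside the kn cells, and the tup gene was seen in all 3 kinds, in 7 of 26, 10 of 19 and 9 of 14 cells.

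**Figure D4:**
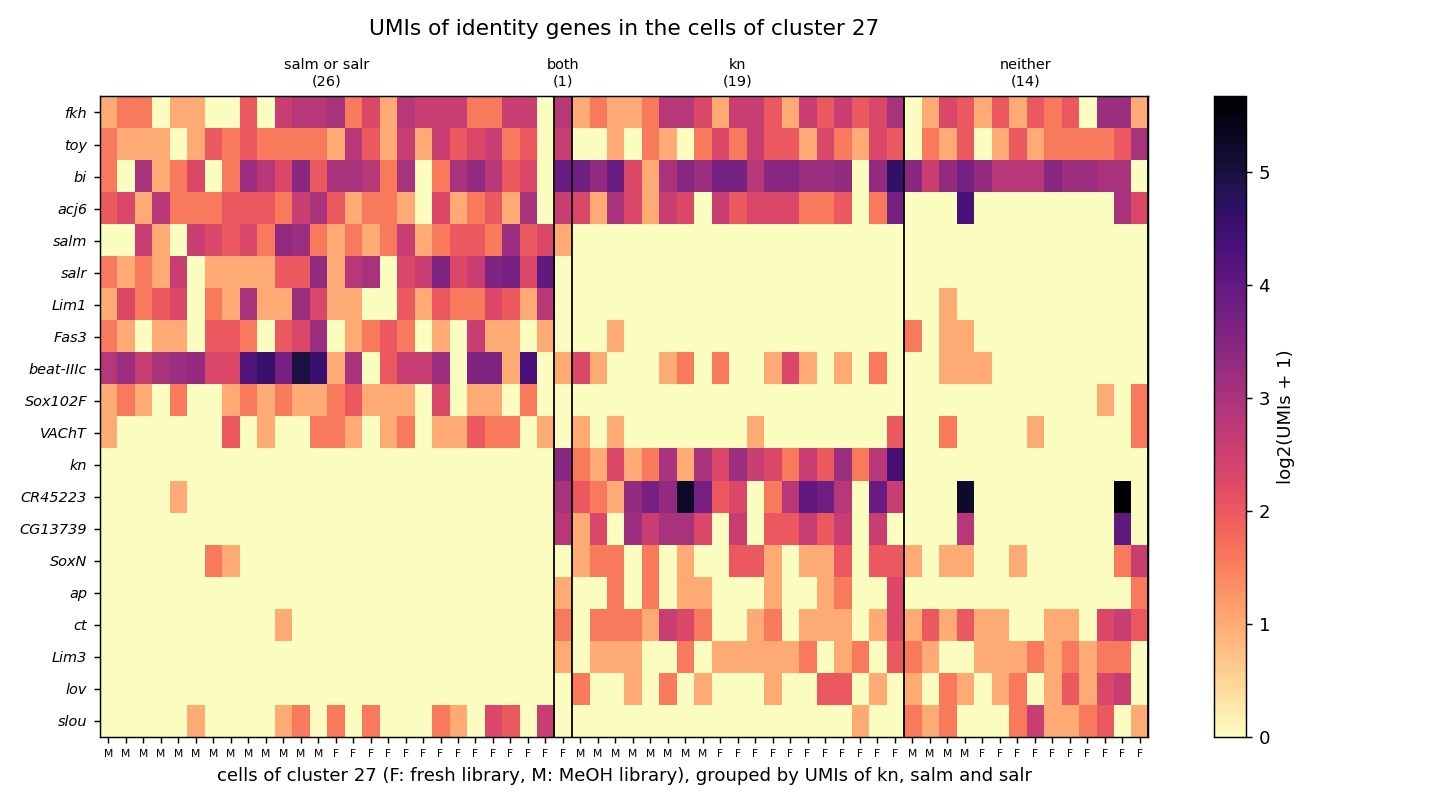
UMIs, as log2(UMIs + 1), of 20 genes (rows) in the 60 cells of cluster 27 (columns, F for fresh and M for MeOH), grouped by detection of kn, salm and salr. Fkh, toy and bi run through all groups, Lim1 and beat-IIIc are seen in 23 of the 26 spalt cells, CR45223 in 17 of the 19 kn cells, and ct and Lim3 in both the kn cells and those with neither.

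Cluster averages of several genes rested on 1 kind of cell, by alternatives chosen after the data had been seen. Without the cells with a salm or salr UMI, the ratio of beat-IIIc to the compared neurons was 0.985 in fresh and 2.04 in MeOH. Sox102F then had 3 UMIs in fresh, a ratio of 0.924, and 0 in MeOH. In that setting the genes at least 2 fold higher numbered 62, of which 39 were among the 54. Without the cells with a kn UMI the count was 56, with 32 shared.

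The neuropeptide gene Lk (leucokinin) was the only one of 8 listed peptide genes that entered to be at least 2 fold higher, while Ilp3, Proc and SIFa were lower. Over all genes that entered, 2.06% were higher and 3.32% lower. Without clusters 3 and 33 only Lk and SIFa of the list entered, with Lk higher and SIFa lower. The level of Lk rested on few cells, with 12 UMIs in 3 fresh cells and 25 UMIs in 2 MeOH cells, of which 1 held 24. In the compared neurons 18 fresh cells held 261 UMIs, 239 of them in 1 cell, and 68 MeOH cells held 76. Of the 5 cells of cluster 27 with Lk, 3 fresh and 1 MeOH cell also had a UMI of CR45223.

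Among the clusters with at least 50 cells, by the correlation of log2(CPM + 10) over 4591 genes, those most like cluster 27 were 5 (Pearson r = 0.942), 14 (0.941) and 8 (0.940), values that lay too close to order. Cluster 4, which was merged with cluster 27 at a resolution of 1, had r = 0.936. The correlation is across genes, which are not independent, and the clusters share libraries and depth. Against cluster 5, kn had 411 against 4.26 CPM in fresh and 317 against 4.76 in MeOH, while VGlut had 69.3 against 1353 and 50.7 against 1705. Against cluster 14, which shares acj6, fkh had 677 against 48.5 and 735 against 49.4, and PHDP, a homeobox gene, had 0 and 1 UMI, or 0 against 317 and 12.7 against 239 CPM. Against cluster 8, the bHLH gene Fer1 had 1 UMI in fresh and 0 in MeOH, against 1397 and 1168 CPM. Cluster 26, which shares fkh and the spalt genes, had acj6 at 6.39 CPM.

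Over the lines of the MeOH library with at least 5 cells of the cluster (136, 639 and 761), fkh had 691, 805 and 963 CPM in rising order. Acj6 ran from 622 through 1071 to 1375, beat-IIIc from 872 through 2279 to 3693, and mspo from 939 through 1243 to 4282. The mix of cell kinds differed between these lines. Spalt cells were 2 of 8 in line 136, 2 of 5 in line 761 and 4 of 5 in line 639. The part of this mix in the levels was not tested. Fkh, acj6, mspo, CR46006, beat-IIIc, bi and Syp exceeded the compared neurons of the same line in 6 of 6 lines with cells. Kn did so in 4 of 6 lines, and VGlut in 0 of 6. Lines 45 and 502 rested on 2 cells each, with 1 UMI of fkh in each line.

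Between the libraries, 1981 genes entered within cluster 27, of which 143 (7.22%) were at least 2 fold higher in MeOH and 178 (8.99%) at least 2 fold lower. The same genes gave 65 (3.28%) and 17 (0.858%) in the compared neurons, with 38 and 11 called in both. Counts are small here, and thinning to 2000 UMIs per cell left 86 and 70 in cluster 27. The mitochondrial ribosomal RNA mt:lrRNA had 240 CPM in fresh and 5186 in MeOH, and the compared neurons had 321 and 4406. The heat-shock gene Hsp70Bc had 683 and 12.7 CPM, against 381 and 86.5. Beat-IIIc differed within cluster 27, at 448 and 2118 CPM with a ratio of 4.73 (3.62 to 6.22), and not in the compared neurons, at 109 and 121. The spalt cells, which hold most of its UMIs, were 13 of 35 fresh and 13 of 25 MeOH cells, and within them it had 1010 and 4100 CPM. Acj6 had 448 and 1116 CPM, against 64.5 and 114.9, and fkh had 677 and 735, a ratio of 1.09 (0.782 to 1.49). No test was made, and the part of strain, fixation and preparation in these differences cannot be told apart.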

How the data were processed

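Single-cell RNA libraries of 2 preparations were analysed. The deposited matrices hold counts, namely UMIs per gene and barcode for 17473 gene rows. Per the submitters' processing notes, Cell Ranger, Seurat and dm6 were used; versions and the gene annotation are not given in the sources used here. Cluster numbers and lines come from the deposited tables, and no doublet caller was run. Counts were summed per library and class and scaled to CPM, with exact Poisson 95% intervals; shares have exact Clopper-Pearson 95% intervals. A side at 0 UMIs was set to 3 counts for ratios. Median totals per cell were 4814 UMIs in fresh and 2600 in MeOH cells of cluster 27, which held 187498 and 78862 UMIs in all. Cells were also thinned at random to 2000 UMIs, which every listed cell reached.

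Named genes were the 25 with the highest lower-of-both ratio (at least 50 CPM, a UMI in 20% of cells of cluster 27 per library, no cell with over 50% of its UMIs), the 8 with the lowest (at least 200 CPM in the compared neurons), up to 4 per list, and a set of genes named for their role. The members and lists were chosen with earlier results of these data known. No p-value is given, since the clusters were made from these genes and each group has 1 library. The ratio step was tested on simulated data. Gene positions are those of the Ensembl annotation of BDGP6 and were matched by symbol. Genes that overlap another gene, among them CG13739, mspo, CR46006, beat-IIIc, CG14322, lov, Sox102F, Lim3 and toy, may share reads with it. Python 3.11.15, numpy 2.4.6, scipy 1.17.1 and pandas 2.3.3 were used. The alternatives were other CPM minimums, added pseudocounts, means over cells, thinning, other sets of compared neurons, no cells of high UMI total, and each line left out in turn.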

Additional observations from a re-analysis of the deposited data

Results flagged for a closer look

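ChAT, the acetylcholine-synthesizing enzyme gene, was 1.65 times the level of the compared neurons in fresh cluster 27 and 0.381 times in MeOH, so that the MeOH ratio was 0.231 of the fresh one. The directions were opposite, the difference was not tested, and the MeOH value rests on 1 UMI.

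Barcodes of the matrices that the deposited cell table does not list held fkh together with acj6 more often than the compared neurons did. In fresh the share was 11.8% of 76 barcodes (5.56 to 21.3), against 2.70%, at a median of 40565 UMIs against 6600. In MeOH it was 5.62% of 1192 barcodes (4.38 to 7.08), against 2.55%, at a median of 3094 UMIs against 3334. The part of depth, and of barcodes with more than 1 cell, was not tested.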

How the results depend on the processing

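No paired analysis was possible because each group is 1 library and the strains of the groups differ, and no test was made. The 54 genes at least 2 fold higher became 82 with a minimum of 20 CPM, 138 with no minimum and 28 with 50 CPM added to both sides. The 87 lower genes became 134, 137 and 50, and 50 without clusters 3 and 33. Leaving out each MeOH line gave 53 to 56 higher and 67 to 87 lower genes, para at 40.5 to 102 CPM in MeOH, and a MeOH share of 1.24% to 1.69%. The MeOH share was 0.921% of all cells. Thinning gave 74 higher and 81 lower genes, of which 46 and 42 were among the 54 and 87, and 86 genes higher and 70 lower in MeOH within cluster 27. Alternatives chosen after seeing the data left out cells of 1 kind: without cells with a salm or salr UMI the lower of both libraries' ratios was 0.985 for beat-IIIc (2.04 in MeOH) and 0.924 for Sox102F. For salm and salr this removes every UMI, so their 0.533 and 0.227 are the level of 3 counts and carry no information. With at least 2 UMIs required, 0 fresh cells carried both kn and a spalt gene, beside 1. Of 912 values of 48 named genes under 19 alternatives, 826 stayed within the counting interval, 82 moved beyond it and 4 reversed, salm and salr by construction. Genes below 3 counts in cluster 27, which is 16.0 CPM in fresh and 38.0 in MeOH, could not be told from absent ones.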

Other observations

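Genes outside the groups described above also stood apart in cluster 27. The RNA-binding protein gene mub had 885 CPM against 301 in fresh and 1395 against 443 in MeOH, in 34 of 35 and 24 of 25 cells, and 78.0% and 71.0% of the compared neurons also had a UMI of it. The noncoding RNA CR46006 had 965 against 227 and 1889 against 428 CPM, in 34 of 35 and 25 of 25 cells, and 3 clusters (23, 4 and 34) had a higher level. BicD, which links cargo to dynein, had 229 against 74.1 and 266 against 77.2 CPM. CG43658 had 480 against 150 CPM in fresh and 1116 against 204 in MeOH, and 79.2% and 70.9% of glia also had a UMI of it.

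Among the genes with low levels, bru3, an RNA-binding protein of the Bruno family, had 139 against 818 CPM in fresh and 228 against 1285 in MeOH. A UMI of it was seen in 9 of 35 and 10 of 25 cells, against 75.9% and 78.8% of the compared neurons. The noncoding RNA CR43283 had 219 against 1943 and 596 against 2957 CPM. The homeobox gene hth had 411 against 1067 and 393 against 1473 CPM, and vvl, a POU-homeobox gene, had 64.0 against 257 and 88.8 against 380.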
